A study of Mus musculus with 10 samples.

Results

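The RING finger genes named Rnf are a collection of ubiquitin ligase genes, described here by where nucleophosmin (NPM1) and the promoter mark H3K4me3 were found at them in mouse macrophages. The members were chosen by symbol: every protein-coding gene whose symbol is Rnf followed by a digit, plus Rnft1 and Rnft2, which gave 85 of the 21887 protein-coding genes of the GRCm38.p6 gene table. The collection was also selected on measured values, since Rnf149 and Rnft1 were known to stand near the top of the NPM1 peak lists of infarct and interleukin-4 (IL-4) macrophages. The places of those genes in these lists are therefore given as a description. All shares over the collection carry the same reservation, and no test was made, because each group had 1 library.

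The study mapped chromatin with CUT&Tag, in which an antibody tethers a transposase that cuts and tags the DNA beside the bound protein. NPM1 was mapped in cardiac macrophages of wild-type (WT) mice taken at day 3 after myocardial infarction, set against WT cardiac macrophages at day 3 after a sham operation. A second NPM1 comparison used bone marrow-derived macrophages (BMDM) of WT mice given 20 ng/ml IL-4 for 12 hours, set against untreated WT BMDM, both grown for 7 days in 50 ng/ml M-CSF. H3K4me3 was mapped in cardiac macrophages at day 3 after infarction from Npm1 conditional-knockout mice (labelled Npm1-cKO) and from WT mice, so that both genotypes had an infarct. The sources used here give neither the promoter that drives the recombinase nor the number of animals behind a library. Of 10 libraries in the series 6 were analysed. The other 4, all of BMDM with IL-4, were not analysed here.

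RING finger proteins are ubiquitin ligases: the RING domain, a cross-braced fold that binds zinc, holds a ubiquitin-loaded E2 enzyme and passes the ubiquitin to a substrate. Members sit in most compartments of the cell. Some span the membranes of the endoplasmic reticulum (ER), endosomes or lysosomes, some write ubiquitin on histones and at DNA breaks, and some build the ubiquitin chains through which innate immune receptors of macrophages signal. Others are made mainly in germ cells, neurons or epithelia. NPM1 is an abundant nucleolar protein that also chaperones histones, and trimethylation of lysine 4 of histone H3 marks active promoters.

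Promoter windows of 6 members show the range of what was found, from 250 bases before to 50 bases after an annotated start site, from the RefSeq promoter table (GRCm38.p6). Each is written 5′ to 3′ on the gene's own strand. Capitals mark the letters of a GC box (GGGCGG), an ETS element (CCGGAAG) or a CCAAT box (CCAAT), searched on both strands, so that a motif on the opposite strand stands as its reverse complement. Adjoining capitals in Rnf44 are 2 overlapping GC boxes. Rnf149 (chr1:39577298-39577597, minus strand), Rnf44 (chr13:54693911-54694210, minus strand) and Rnf13 (chr3:57735807-57736106, plus strand) are shown because they carried some of the strongest NPM1 peaks of the collection. Rnf126 (chr10:79766903-79767202, minus strand) is shown because its strong NPM1 peak lies inside the gene, away from both of its outermost ends. Rnf6 (chr5:146221408-146221707, minus strand) is shown for strong H3K4me3 without an NPM1 peak in the infarct or IL-4 list. Rnf133 (chr6:23650256-23650555, minus strand), a testis gene, had no peak of any list within 5 kb.
Rnf149: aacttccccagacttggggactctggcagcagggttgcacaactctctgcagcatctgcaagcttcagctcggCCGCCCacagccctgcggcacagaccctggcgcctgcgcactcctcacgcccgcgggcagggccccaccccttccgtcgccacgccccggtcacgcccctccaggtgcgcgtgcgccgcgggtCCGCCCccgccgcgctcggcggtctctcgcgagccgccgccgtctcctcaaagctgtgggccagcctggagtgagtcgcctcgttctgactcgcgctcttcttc
Rnf44: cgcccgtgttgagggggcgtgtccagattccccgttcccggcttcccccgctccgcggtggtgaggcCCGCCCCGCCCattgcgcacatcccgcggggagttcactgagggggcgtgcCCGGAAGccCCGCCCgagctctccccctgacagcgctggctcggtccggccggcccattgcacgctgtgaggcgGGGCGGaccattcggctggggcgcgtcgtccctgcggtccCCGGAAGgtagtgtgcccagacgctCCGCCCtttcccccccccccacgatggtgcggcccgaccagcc
Rnf13: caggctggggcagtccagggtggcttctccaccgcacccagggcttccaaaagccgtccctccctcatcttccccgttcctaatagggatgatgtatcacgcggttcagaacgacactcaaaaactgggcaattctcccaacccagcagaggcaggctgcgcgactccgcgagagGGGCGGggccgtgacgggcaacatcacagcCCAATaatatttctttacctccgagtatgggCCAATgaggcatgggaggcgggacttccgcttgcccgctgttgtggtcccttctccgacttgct
Rnf126: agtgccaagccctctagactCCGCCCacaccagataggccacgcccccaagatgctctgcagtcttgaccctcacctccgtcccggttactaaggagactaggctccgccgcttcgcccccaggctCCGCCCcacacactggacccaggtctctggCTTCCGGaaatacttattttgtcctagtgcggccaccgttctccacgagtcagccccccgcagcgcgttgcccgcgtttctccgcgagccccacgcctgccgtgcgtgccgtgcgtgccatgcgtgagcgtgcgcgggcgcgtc
Rnf6: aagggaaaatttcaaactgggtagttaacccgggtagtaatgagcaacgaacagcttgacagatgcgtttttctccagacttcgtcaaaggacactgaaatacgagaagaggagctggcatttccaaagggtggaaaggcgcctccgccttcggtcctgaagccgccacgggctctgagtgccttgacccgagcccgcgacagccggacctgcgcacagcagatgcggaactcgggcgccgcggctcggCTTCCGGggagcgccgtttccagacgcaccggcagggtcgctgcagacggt
Rnf133: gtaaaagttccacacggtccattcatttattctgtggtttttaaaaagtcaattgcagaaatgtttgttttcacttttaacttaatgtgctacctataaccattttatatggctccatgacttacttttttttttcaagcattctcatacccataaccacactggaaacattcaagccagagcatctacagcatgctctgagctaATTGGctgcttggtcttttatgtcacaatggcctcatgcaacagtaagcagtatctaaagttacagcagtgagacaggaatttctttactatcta

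The 300 bases of Rnf149 lay wholly under its NPM1 peak in the infarct list and in the IL-4 list, and wholly under its H3K4me3 peaks in the knockout list and in the WT list. The same held for Rnf44 and Rnf13, and the untreated list also covered 176 bases of the Rnf44 window. The Rnf126 window had 274 bases under the infarct NPM1 peak and all 300 bases under the IL-4, knockout and WT peaks. In the Rnf6 window no base was under an NPM1 peak of any list, while H3K4me3 covered 300 bases in knockout and 120 bases in WT macrophages. The windows differed in composition: Rnf44 was 74.7% G or C with 35 CpG dinucleotides, Rnf149 71.3% with 33, Rnf126 66.3% with 30, Rnf6 60.0% with 28 and Rnf13 59.7% with 18. The Rnf133 window was 36.3% G or C with 1 CpG.

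Libraries differed in depth, which bears on every count. The lists held 79893 NPM1 peaks in infarct and 58011 in sham macrophages, 104514 with IL-4 and 58989 untreated, and 52977 H3K4me3 peaks in knockout and 73321 in WT. The lists carry no read totals. The genome-wide background pileup, recovered from the deposited peak values, was 2.35 times as high in infarct as in sham, 3.19 times as high with IL-4 as untreated and 0.853 times as high in knockout as in WT. Deposited fold is the enrichment at a peak's summit over the local background, and −log10 q is the significance the peak caller gave it. Both are the authors' values, used to rank peaks within a list, and values of different lists set side by side also differ with depth and are no measure of change. Where no peak is listed, the depth of that library limits what could be called. Of 10 macrophage marker genes 10 had an NPM1 peak at a gene end in infarct and 2 in sham, 10 with IL-4 and 0 untreated, and 10 had H3K4me3 in knockout and 9 in WT. Of 6 cardiomyocyte genes 1 had an NPM1 peak in infarct and 1 in sham, 1 with IL-4 and 0 untreated, and 0 had H3K4me3 in knockout and 1 in WT. Of 5 fibroblast genes 0 had an NPM1 peak in infarct and 1 in sham, 1 with IL-4 and 0 untreated, and 3 had H3K4me3 in knockout and 1 in WT. Of 4 endothelial genes 2 had an NPM1 peak in infarct and 0 in sham, 4 with IL-4 and 0 untreated, and 3 had H3K4me3 in knockout and 1 in WT. Of 4 T and B cell genes 1 had an NPM1 peak in infarct and 0 in sham, 2 with IL-4 and 0 untreated, and 2 had H3K4me3 in knockout and 1 in WT. Over all protein-coding genes the shares with an NPM1 peak at a gene end were 50.6% in infarct, 10.9% in sham, 51.2% with IL-4 and 6.71% untreated. For H3K4me3 they were 61.8% in knockout and 57.1% in WT. The part of cells other than macrophages in the results was not tested. Npm1 itself had H3K4me3 with a fold of 7.97 in knockout and 7.60 in WT, which does not check the deletion, since the part of the gene removed is not stated.

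NPM1 peaks at Rnf genes after infarction were compared with those of sham macrophages. A gene-end peak is a peak that overlaps the 1 kb on either side of an outermost end of the gene. In the infarct list 62 members (72.9%) had a gene-end peak, against 50.6% of all protein-coding genes, and in the sham list 10 members (11.8%) had 1, against 10.9%. The infarct list alone marked 52 members (43.4% of all genes) and the sham list alone marked 0 members (3.75% of all genes). Both lists marked 10 members (1563 of all 21887 genes). With a −log10 q of 5 or more, 0 members had a sham peak, against 149 of all 21887 genes. In infarct 39 members reached that limit, against 27.9% of all genes. Rnf186 lay just inside that limit at 5.13, with Rnf169 just outside at 4.55. The median fold of the members' infarct peaks was 4.97, from 1.87 to 13.6, against 4.17 over all genes with a peak. With the infarct library thinned to the sham background, 50 members were marked in infarct alone, 1 in sham alone and 9 in both. The thinned counts were made for members alone, so no share of all genes stands beside them. The 10 sham peaks had folds from 3.06 to 4.44 and −log10 q no higher than 3.12.

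With IL-4 the counts at the collection were similar. In the IL-4 list 54 members (63.5%) had a gene-end peak, against 51.2% of all genes, and in the untreated list 5 members (5.88%), against 6.71%. The IL-4 list alone marked 50 members (46.5% of all genes), and both lists marked 4 (1035 of all 21887 genes). The untreated list alone marked 1 (1.98% of all genes). That member was Rnf39, a gene of the major histocompatibility region, whose untreated peak was 200 bp wide with fold 3.46 (−log10 q 1.40). Peaks with −log10 q of at least 5 stood at 0 members in untreated, against 87 of all 21887 genes. With IL-4 they stood at 35 members, against 29.4% of all genes. Rnf135 lay just inside that limit at 6.53, and Rnf141 just outside at 4.94. The members' IL-4 peaks had a median fold of 4.34, from 2.02 to 15.1, against 3.96 over all genes with a peak. Thinned to the untreated background, the IL-4 list alone marked 43 members, the untreated list alone 2 and both lists 3. Here too the thinned counts were made for members alone. The 5 untreated peaks, at Rnf44, Rnf34, Rnf39, Rnf123 and Rnf5, had folds from 3.03 to 4.75.

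**Figure D1:**
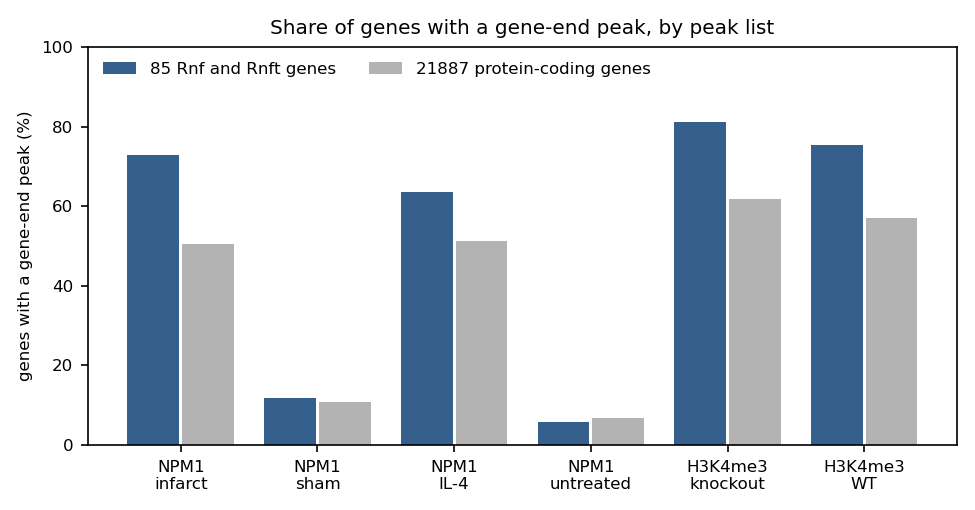
Share of genes with a gene-end peak (%) in each of the 6 peak lists, for the 85 Rnf and Rnft genes (blue) and all 21887 protein-coding genes (grey), 1 library per list. The collection stood above all genes in the infarct, IL-4, knockout and WT lists, at 72.9%, 63.5%, 81.2% and 75.3%, and near all genes in the sham and untreated lists, at 11.8% and 5.88%.

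The plot of the share of genes with a peak sets the collection beside all protein-coding genes. The gap between them was widest in the infarct list and narrow in the sham and untreated lists, where few genes of any kind had a peak.

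The strongest NPM1 peaks were at 5 members, the same in the infarct and IL-4 lists: Rnf5, Rnf149, Rnft1, Rnf44 and Rnf13. Rnft1, a RING protein that spans membranes of the ER, lies at chr11:86484657-86499007. Its infarct peak of 845 bp (chr11:86484147-86484991) had fold 13.6 (−log10 q 83.7), and its IL-4 peak of 761 bp (chr11:86484256-86485016) fold 15.1 (−log10 q 102). Neither sham nor untreated macrophages had a peak within 5 kb of Rnft1. Among genes with a gene-end peak, Rnft1 ranked 19 in infarct and 19 with IL-4 by −log10 q, and 8 in infarct and 9 with IL-4 by fold.

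Rnf149 encodes a membrane ligase with a protease-associated domain, known in mouse macrophages for lowering the interferon gamma receptor subunit IFNGR1. It lies at chr1:39551294-39577439 on the minus strand, and its NPM1 peak covered the start site. The infarct peak of 766 bp (chr1:39577052-39577817) had fold 10.9 (−log10 q 86.7), and the IL-4 peak of 657 bp (chr1:39577120-39577776) fold 10.2 (−log10 q 90.5). No sham or untreated peak lay within 5 kb. By −log10 q Rnf149 ranked 16 in infarct and 31 with IL-4, and by fold 62 in infarct and 98 with IL-4. Counted from the start site with upstream negative, the NPM1 summits lay at −158 bases in infarct and −153 with IL-4, in the window printed above, and the H3K4me3 summits at −115 in knockout and −160 in WT.

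Rnf5, an ER-anchored ligase of misfolded membrane proteins that in human cells also degrades the DNA-sensing adaptor STING, had the highest −log10 q of the collection in infarct. Its infarct peak of 1305 bp had fold 8.16 (−log10 q 90.1), and its IL-4 peak of 1231 bp fold 7.68 (−log10 q 96.3). These peaks overlapped the end of the neighbouring gene Agpat1 as well, so that they cannot be given to Rnf5 alone. In sham macrophages a 200 bp peak stood there (fold 3.38), and in untreated BMDM a 221 bp peak (fold 3.03).

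Rnf44, a RING-H2 protein, had an infarct peak of 1157 bp with fold 9.22 (−log10 q 63.5), and an IL-4 peak of 996 bp with fold 10.6 (−log10 q 88.2). Untreated BMDM had a 200 bp peak at the same end, fold 4.75 (−log10 q 3.47), and the sham peak, with a fold of 4.17, lay at the other end of the gene. A further start site inside Rnf44 carried NPM1 peaks with folds of 5.40 in infarct and 6.07 with IL-4, and none in sham or untreated. Rnf13, an endosomal and lysosomal ligase related to Rnf149, had fold 11.9 (−log10 q 54.7) in infarct and fold 10.7 (−log10 q 49.2) with IL-4. It had no gene-end peak in sham or untreated.

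**Figure D2:**
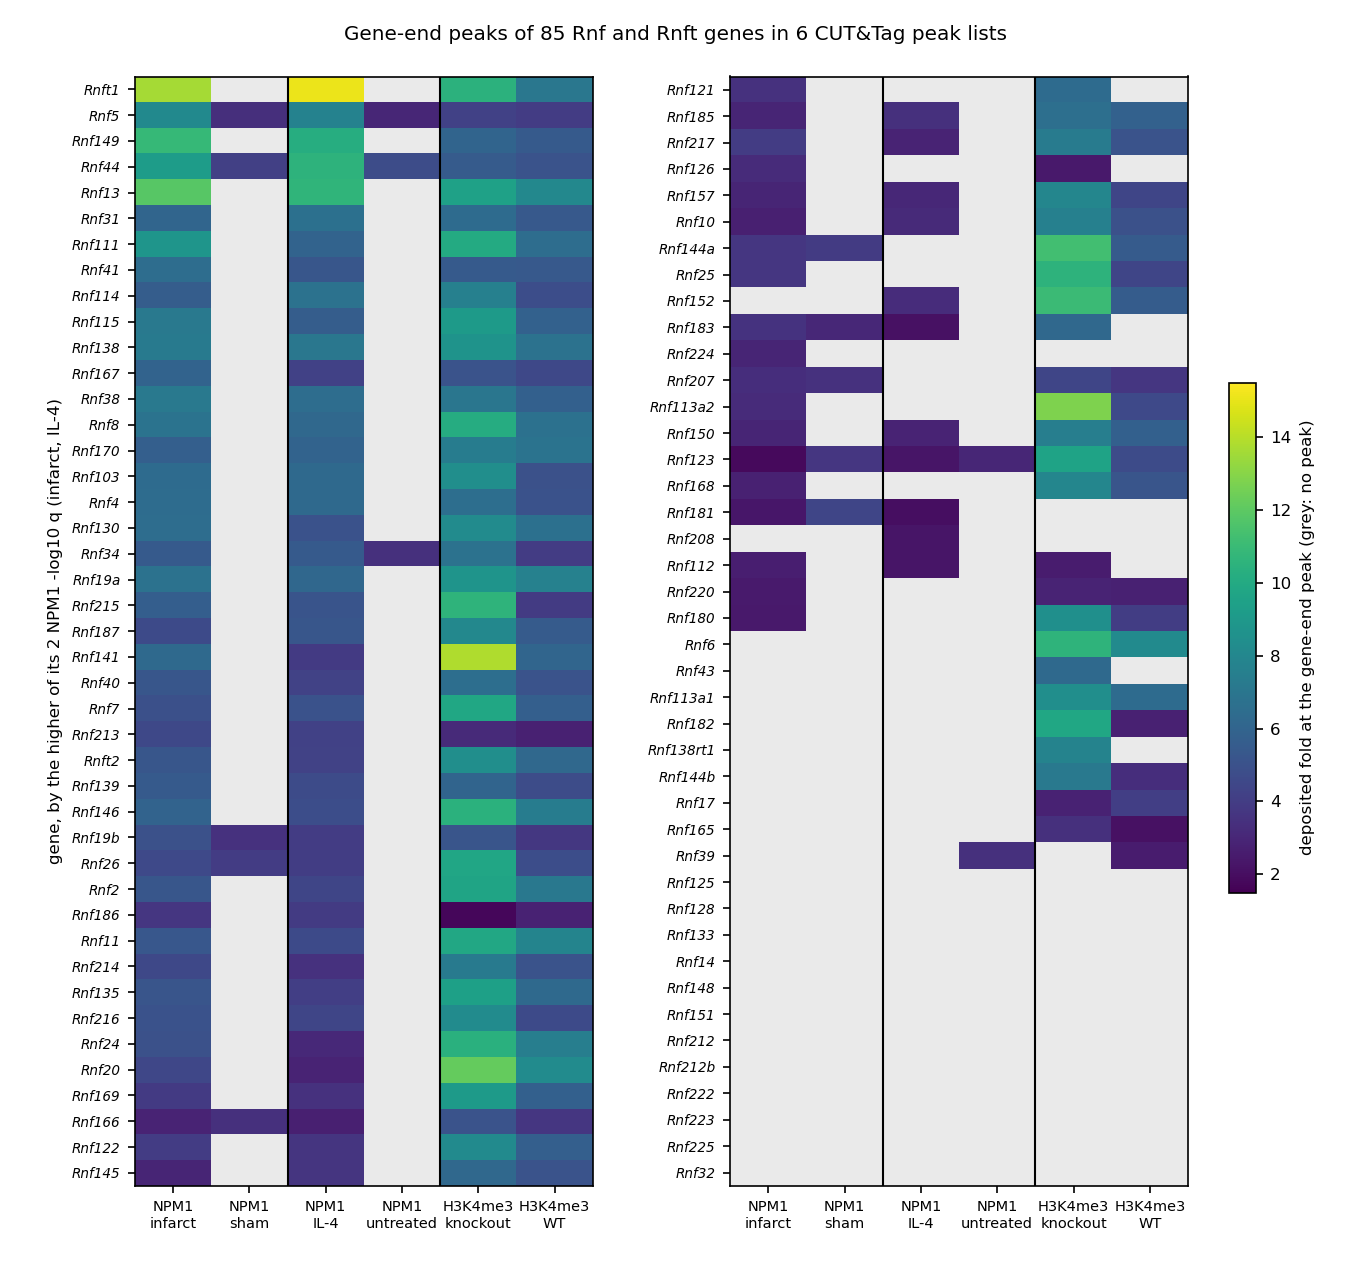
Deposited fold at the gene-end peak of each of the 85 Rnf and Rnft genes (rows) in the 6 peak lists (columns), in order of the higher of the infarct and IL-4 −log10 q; grey marks no gene-end peak. Rnft1, Rnf5, Rnf149, Rnf44 and Rnf13 lead the NPM1 lists, the sham and untreated columns are grey for all but 10 and 5 members, and the last 12 members have no gene-end peak in any list.

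The map of fold by gene shows that the NPM1 leaders were spread out in the H3K4me3 order. Among genes with a gene-end H3K4me3 peak Rnf5 ranked 7782 in knockout and 4941 in WT by −log10 q, Rnf44 5922 in knockout and 2887 in WT, and Rnf149 5337 in knockout and 2910 in WT. Rnf13 ranked 1813 in knockout and 579 in WT, and Rnft1 1017 in knockout, after Rnf138 and Rnf8 alone among members, and 2081 in WT. The members that led H3K4me3 by −log10 q were Rnf138 and Rnf8, both of DNA repair, in knockout, and Rnf13 and Rnf31 in WT.

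Other members had weaker NPM1 peaks. There were 30 members with an infarct peak whose surroundings, to 5 kb, held no sham peak, a count not made over all genes. Of these, those after Rnf149, Rnft1 and Rnf13 were Rnf111, Rnf167, Rnf8, Rnf138, Rnf114, Rnf130, Rnf4, Rnf19a and Rnf103. Rnf111, known as Arkadia, a ligase that amplifies TGF-beta signalling by removing its inhibitors, had an infarct fold of 8.80 and −log10 q of 27.2. Rnf103, an ER protein, closed that row with fold 6.39 (−log10 q 13.0). With IL-4 there were 37 such members, again with no count over all genes. After Rnft1 and Rnf149 came Rnf31, Rnf114, Rnf138, Rnf41, Rnf8, Rnf170, Rnf111, Rnf103, Rnf4 and Rnf115. Rnf31, or HOIP, which builds linear ubiquitin chains for NF-kappaB signalling, had an IL-4 fold of 6.64 and −log10 q of 32.5, and Rnf115 fold 5.64 (−log10 q 14.6). Rnft2, the paralogue of Rnft1, had a modest peak, with a fold of 5.24 in infarct and 4.25 with IL-4. That peak also overlapped the end of Spring1.

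Some peaks were shared with a neighbour. Of the 62 infarct peaks at members 17 lay within 1 kb of an end of another protein-coding gene, as did 16 of the 54 IL-4 peaks. The same count was not made over all genes. Shared in both lists were the peaks of Rnf5 (beside Agpat1), Rnf31 (Psme2), Rnf40 (Ccdc189), Rnf41 (Nabp2), Rnf114 (Spata2), Rnf115 (Polr3c), Rnf139 (Tatdn1), Rnf146 (Gm30698), Rnf166 (Ctu2), Rnf167 (Slc25a11), Rnf170 (Hook3), Rnf181 (Tmem150a), Rnf214 (Pcsk7) and Rnft2 (Spring1). In the infarct list alone these were Rnf25 (Stk36), Rnf126 (Fgf22) and Rnf224 (Cysrt1), and in the IL-4 list alone Rnf123 (Mst1) and Rnf208 (Ndor1). The peaks of Rnft1, Rnf149, Rnf44, Rnf13, Rnf111 and Rnf8 had no other protein-coding gene end within 1 kb.

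Grouped by what they do, members with an infarct NPM1 peak ran from 9 of the 9 that act on chromatin to 1 of the 8 of the germline. The role lists overlap and were drawn from general knowledge of the family, with earlier results of these data known. Over all genes the shares with a peak were 50.6% in infarct and 10.9% in sham, and 51.2% with IL-4 and 6.71% untreated, so that 0 or 1 member with a sham or untreated peak in lists this small is near the share of all genes. All 9 members that act on chromatin, transcription or DNA damage had an infarct peak and 0 had a sham peak; 8 had an IL-4 peak and 0 an untreated peak. Rnf8, which marks histones at DNA breaks, had a fold of 6.83 in infarct and 6.25 with IL-4, and Rnf4, a ligase of SUMO-tagged proteins, 6.46 in infarct and 6.30 with IL-4. Rnf2, the catalytic subunit of the polycomb complex PRC1, had 5.24 in infarct and 4.44 with IL-4. Rnf20 and Rnf40 together ubiquitinate histone H2B. Rnf20 had a fold of 4.46 in infarct and 2.89 with IL-4, and Rnf40 5.23 in infarct and 4.26 with IL-4. Rnf168, which extends the mark set by Rnf8, had a weak infarct peak with a fold of 2.78 and no IL-4 peak.

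Of 8 members of immune sensing and NF-kappaB signalling, 7 had a peak in infarct and 0 in sham, and 6 had a peak with IL-4 and 1 untreated. By −log10 q Rnf31 led in both lists, though with IL-4 its fold of 6.64 was below the 6.76 of Rnf114. Rnf34, a ligase of caspases, had folds of 5.46 in infarct and 5.44 with IL-4. Its untreated peak, 200 bp wide, had a fold of 3.46. Rnf213, the giant ATPase ligase mutated in human moyamoya disease, had folds of 4.51 in infarct and 4.22 with IL-4. Rnf135, or Riplet, which in human cells activates the RNA sensor RIG-I, had 5.21 in infarct and 4.12 with IL-4. The member without a gene-end peak in any list was Rnf125, a ligase that lowers RIG-I.

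Of 14 ligases of the ER and other membranes, 12 had a peak in infarct and 2 in sham, and 11 with IL-4 and 1 untreated. Besides Rnf5 and Rnft1, Rnf170, which removes activated inositol trisphosphate receptors, had folds of 5.71 in infarct and 5.94 with IL-4. Rnf139, a ligase of sterol metabolism, had folds of 5.44 in infarct and 4.72 with IL-4. Rnf145, which removes the cholesterol synthesis enzyme HMG-CoA reductase, had 2.98 in infarct and 3.67 with IL-4. Of the 9 ligases with a protease-associated domain, the class of Rnf149, 5 had a peak in infarct and 0 in sham, and 5 with IL-4 and 0 untreated. These were Rnf13, Rnf130, Rnf149, Rnf150 and Rnf167. Of the other 4, Rnf133 and Rnf148 are testis genes, Rnf128 is known from T cell anergy and Rnf43 removes Wnt receptors.

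Of 8 RING-between-RING ligases, which take ubiquitin onto themselves before passing it on, 6 had a peak in infarct and 2 in sham, and 5 with IL-4 and 0 untreated. Of 13 cullin-bound and general ligases, 12 had a peak in infarct and 3 in sham, and 10 with IL-4 and 1 untreated. Rnf7, the RING subunit of cullin 5 ligases, had folds of 4.92 in infarct and 5.05 with IL-4, and Rnf41, which removes the receptor ErbB3, 6.52 in infarct and 5.24 with IL-4. Rnf146, which reads poly-ADP-ribose and degrades axin, had 5.95 in infarct and 4.82 with IL-4. The 9 members in no role list had 7 in infarct and 2 in sham, and 7 with IL-4 and 1 untreated.

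Few germline and tissue-restricted members had a strong peak. Of 8 germline or testis members 1 had a peak in infarct, with a fold of 3.22 at Rnf113a2, and 0 in sham, with IL-4 or untreated. Of 16 neural, muscle or epithelial members, 7 had a peak in infarct and 2 in sham, and 6 with IL-4 and 1 untreated. Those counts lie near the shares of all genes in infarct, sham and untreated. A −log10 q of at least 5 was found at 1 of the 16 in infarct and with IL-4, against 27.9% of all genes in infarct and 29.4% with IL-4. That member was Rnf186, a gut ligase, with folds of 3.71 in infarct and 3.94 with IL-4 at the end away from its start site. Rnf207, a ligase of heart muscle, had weak peaks with folds of 3.35 in infarct and 3.50 in sham.

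Partners of these ligases, and ligases of other names, had a peak in larger shares than the Rnf members in infarct and with IL-4. Of 32 E1 and E2 enzyme genes, 27 had a peak in infarct and 1 in sham, and 28 with IL-4 and 2 untreated. Of 35 RING and U-box ligases of other names, 29 had a peak in infarct and 1 in sham, and 29 with IL-4 and 3 untreated. The Rnf members had 72.9% in infarct and 11.8% in sham, and 63.5% with IL-4 and 5.88% untreated. All genes had 50.6% in infarct and 10.9% in sham, and 51.2% with IL-4 and 6.71% untreated. The median infarct fold was 4.97 at the Rnf members with a peak, 4.53 at the E1 and E2 genes, 5.70 at the other ligases and 4.17 over all genes with a peak.

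NPM1 peaks lay at nearly the same places in infarct cardiac macrophages and in IL-4 BMDM. Of the 62 members with an infarct peak 83.9% had an IL-4 peak (86% of all genes with an infarct peak), and of the 54 with an IL-4 peak 96.3% had an infarct peak (84.9% of all such genes). The 52 shared members had their best peak at the same gene end in 51 cases, with summits a median of 60 bp apart, against 75 bp over all shared genes. The −log10 q values of the 2 lists ranked the 52 members alike, with Spearman's rho of 0.916 across genes (0.837 over 9518 genes of all kinds). Genes are not independent replicates, and both lists share the antibody and the base composition of each gene.

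**Figure D3:**
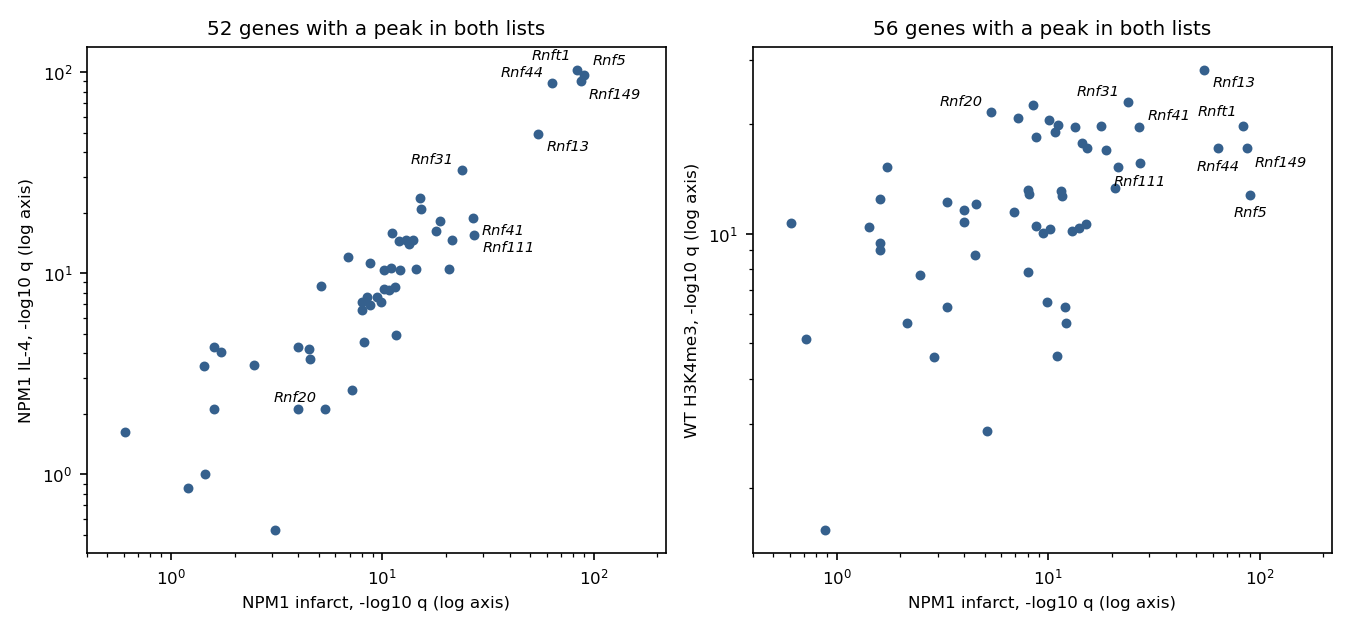
Deposited −log10 q of the gene-end peak of each member (1 point per gene, log axes), for NPM1 in infarct against NPM1 with IL-4 (left, 52 genes) and NPM1 in infarct against WT H3K4me3 (right, 56 genes). The left panel is a narrow band with Rnf5, Rnft1, Rnf149, Rnf44 and Rnf13 at its top, and in the right panel those genes spread over the upper range of WT H3K4me3.

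The plot of −log10 q by list shows the 5 leading members above the rest in both NPM1 lists and mixed with other members in WT H3K4me3. The members with a gene-end peak in the infarct list but not in the IL-4 list numbered 10, with infarct folds from 2.48 to 3.72. Among them, Rnf121 and Rnf126 had peaks at inner start sites in both lists. Their folds there were 4.46 and 7.07 in infarct and 4.44 and 7.74 with IL-4. The members with a gene-end peak in the IL-4 list but not in the infarct list, Rnf152 and Rnf208, had IL-4 folds of 3.28 and 2.30.

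NPM1 and H3K4me3 met at the same gene ends. H3K4me3 was mapped in infarct cardiac macrophages, so that the comparison with BMDM crosses cell sources. Of members with an infarct NPM1 peak, 56 (90.3%) had WT H3K4me3 at the same end, against 87.3% of all genes with an infarct peak, which was 87.5% of the 64 members with WT H3K4me3 (77.3% of all genes with it). With IL-4, 50 members (92.6%) had both at the same end, against 85.1% of all genes, or 78.1% of the members with WT H3K4me3 (76.4% of all genes with it). In infarct, the best peaks of the 2 antibodies overlapped by at least 1 bp at 54 of the 56 members with both. That was 96.4%, against 87.1% of all genes with both. With IL-4 it was 48 of 50 (96%), against 86.6%. Strength was less alike than place: rho of −log10 q between NPM1 and WT H3K4me3 was 0.526 over 56 members in infarct (0.506 over all genes) and 0.301 over 50 members with IL-4 (0.475 over all genes).

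Where the strand is known, from the start sites of 67 members and 17492 genes, most infarct, IL-4 and H3K4me3 peaks lay at the upstream end. The upstream end is the outermost gene end that comes first on the gene's strand. A listed start site can lie far inside the gene, as at Rnf20 and Rnf220. The best infarct NPM1 peak was at the upstream end in 41 of 48 members (85.4%, against 86.2% of all genes). The best IL-4 peak was there in 38 of 42 (90.5%, against 84.4%). For H3K4me3 it was 48 of 53 members in knockout (90.6%, against 91.7% of all genes) and 47 of 49 in WT (95.9%, against 90.4%). In sham it was 2 of 8 members (25%, against 45.3%) and in untreated 3 of 4 (75%, against 64.2%). Counted within 1 kb of any start site instead of a gene end, 47 of 67 members had a peak in infarct (49.6% of all genes) and 2 in sham (6.07%), 43 with IL-4 (49.5%) and 4 untreated (5.16%), and 53 had H3K4me3 in knockout (62.8%) and 51 in WT (57.9%).

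**Figure D4:**
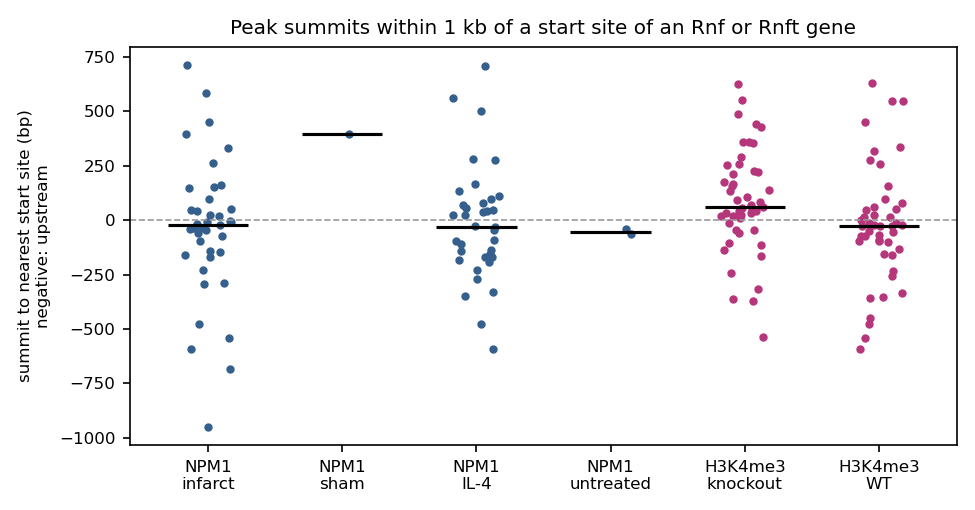
Distance in bp from the nearest annotated start site to the summit of each member's gene-end peak, for summits within 1 kb of it, by peak list; negative values lie upstream and bars are medians. NPM1 summits had medians of −23.5 bp in infarct and −30 bp with IL-4, and H3K4me3 summits 62 bp in knockout and −26.5 bp in WT, while sham and untreated had 1 and 2 such summits.

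The plot of summit distances shows NPM1 summits on both sides of the start site, with quartiles of −148 and 63 bp in infarct and of −167 and 84.8 bp with IL-4. Knockout H3K4me3 summits lay farther downstream, with a median of 62 bp, than WT summits, with a median of −26.5 bp. Over all genes the knockout median was 64 bp and the WT median 1 bp.

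Promoter windows of members with strong NPM1 were rich in G and C. Some genes have several windows. For these the highest G or C share and the highest CpG count were taken, and a motif in any window counted. The number of windows per gene was not matched between the sets. The 26 members with a start site and a −log10 q of 5 or more in both the infarct and the IL-4 list had a median of 64.5% G or C and 24.5 CpG per 300 bases. The other 41 members had 58.7% and 16 CpG, the 10 with no gene-end peak in any list 54.5% and 5 CpG, and all 17492 genes 57.3% and 15 CpG. The GC box GGGCGG was in 23 of those 26 members and in 24 of the other 41. Over all 67 members it was in 47 (70.1%, 95% Wilson interval 58.3% to 79.8%, counting error only), against 49.2% of all genes. The ETS element CCGGAAG was in 13 members (19.4%, interval 11.7% to 30.4%, which holds the 12.9% of all genes). The YY1 element AAGATGGCG was in 4 members (5.97%, interval 2.35% to 14.4%), against 2.14% of all genes. For each other element the share of all genes lay inside the interval of the members: CCAAT in 40.3% and 42.3%, the E-box CACGTG in 8.96% and 8.91%, the NRF1 element GCATGCGC in 2.99% and 3.94%, the CRE TGACGTCA in 1.49% and 2.54% and the interferon element GAAANNGAA in 7.46% and 9.43%. In the printed windows the Rnf149 GC boxes begin at −177 and −54 from the start site, and the ETS elements of Rnf44 at −132 and −18. The Rnf6 window holds an ETS element that begins at −1, though no NPM1 peak was called there. A match describes letters and is not a bound site, and the part of base composition in where peaks were called was not tested.

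Some promoters were missed by windows at outermost gene ends, since they lie inside the gene. At the Rnf126 start site (chr10:79766952), the gene of a ligase that clears proteins stranded in the cytosol, NPM1 peaks had fold 7.07 (−log10 q 32.3) in infarct and fold 7.74 (−log10 q 42.6) with IL-4. No sham or untreated peak lay within 1 kb of it, and H3K4me3 had folds of 7.72 in knockout and 5.21 in WT. By its gene ends Rnf126 had a weak infarct peak and none with IL-4. Rnf181 had a start site with folds of 4.38 in infarct and 4.05 with IL-4, and Rnf121, of the ER and Golgi, 4.46 in infarct and 4.44 with IL-4. Rnf144b had 3.47 in infarct and 4.25 with IL-4. Rnf14, a RING-between-RING ligase first known as a coactivator of the androgen receptor, had no gene-end peak but a peak inside the gene, with fold 7.94 (−log10 q 20.0) in infarct and fold 7.33 (−log10 q 19.3) with IL-4. H3K4me3 of Rnf14 had folds of 12.4 in knockout and 6.64 in WT.

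Of the 12 members with no gene-end peak in any list (Rnf14, Rnf32, Rnf125, Rnf128, Rnf133, Rnf148, Rnf151, Rnf212, Rnf212b, Rnf222, Rnf223 and Rnf225), Rnf133 and Rnf148 had no peak of any list in the gene or within 5 kb. Rnf128 had H3K4me3 at an inner start site, with folds of 5.78 in knockout and 4.59 in WT, and a weak NPM1 peak there in infarct with a fold of 2.98. Rnf125 had H3K4me3 inside the gene, with folds of 11.1 in knockout and 6.19 in WT. Rnf212 and Rnf212b, of meiotic crossover, and Rnf151, of spermatids, had peaks inside the gene or beside it but none within 1 kb of an end.

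H3K4me3 after infarction was compared between cardiac macrophages of Npm1 knockout and of WT mice, to ask how the mark differs where Npm1 was targeted. In knockout 69 members (81.2%) had a gene-end H3K4me3 peak, against 61.8% of all genes, and in WT 64 (75.3%), against 57.1%. Both lists marked 63 members (11685 of all 21887 genes). The knockout list alone marked 6 (8.37% of all genes) and the WT list alone 1 (3.73% of all genes). Peaks with −log10 q of at least 5 stood at 64 members in knockout, against 57% of all genes, and at 55 in WT, against 42.8%. Members' peaks had a median fold of 7.90 in knockout and 5.14 in WT, and all genes 7.77 in knockout and 5.0 in WT.

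The members marked in the knockout list alone were Rnf43, Rnf112, Rnf121, Rnf126, Rnf138rt1 and Rnf183. Rnf138rt1, an X-linked retrocopy of Rnf138, had a knockout peak with a fold of 7.74, and Rnf183, a ligase of kidney and gut, 1 with a fold of 6.22. Those and Rnf112, a brain protein with a fold of 2.58, had no WT peak within 5 kb of the gene. Reads of a retrocopy and its parent gene may not be told apart in places, so the peak of Rnf138rt1 is uncertain. Rnf121 and Rnf126 had WT H3K4me3 at their inner start sites. The Rnf43 peak (chr11:87736486-87738261) lay past the gene's end away from its start site. WT had a peak in the same place (chr11:87737263-87737797), with fold 5.42 (−log10 q 13.0), which began beyond the 1 kb window. The member marked in WT alone, Rnf39, had a 200 bp peak, fold 2.55.

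H3K4me3 covered more bases at the marked ends of Rnf genes in knockout than in WT. The marked end is the gene end with the higher H3K4me3 fold in either list, and bases under peaks were counted within 2 kb of it. A gene marked in both lists can lack a peak at that end in 1 of them. At Rnf165 the WT peak lay at the other end, which gave 450 bases in knockout and 0 in WT. At Rnf186 the knockout peak lay at the other end, which gave 0 in knockout and 232 in WT. At the 63 members marked in both lists the median was 1578 bases in knockout and 1040 in WT, and knockout minus WT had a median of 500 and ran from −232 to 1493. Over the 11685 genes marked in both lists the medians were 1523 in knockout and 921 in WT, and the median difference 572. More bases were covered in knockout at 62 of the 63 members (98.4%), against 97.5% of all genes, so that the direction was that of the whole library. It came with fewer peaks in the knockout list and a background 0.853 times that of WT. Knockout peaks also had higher deposited values, in lists of unlike length and depth: 54.8% of them had a −log10 q of 5 or more, against 23.0% in WT. Over all genes with a gene-end peak, the median −log10 q was 86.6 in knockout and 10.4 in WT. H3K4me3 stood at 3 of 5 fibroblast and 3 of 4 endothelial genes in knockout, against 1 of 5 and 1 of 4 in WT. For cardiomyocyte genes it was 0 of 6 in knockout and 1 of 6 in WT. For T and B cell genes it was 2 of 4 and 1 of 4, and for macrophage genes 10 of 10 and 9 of 10. All genes had 61.8% in knockout and 57.1% in WT. The part of these differences in the result was not tested.

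**Figure D5:**
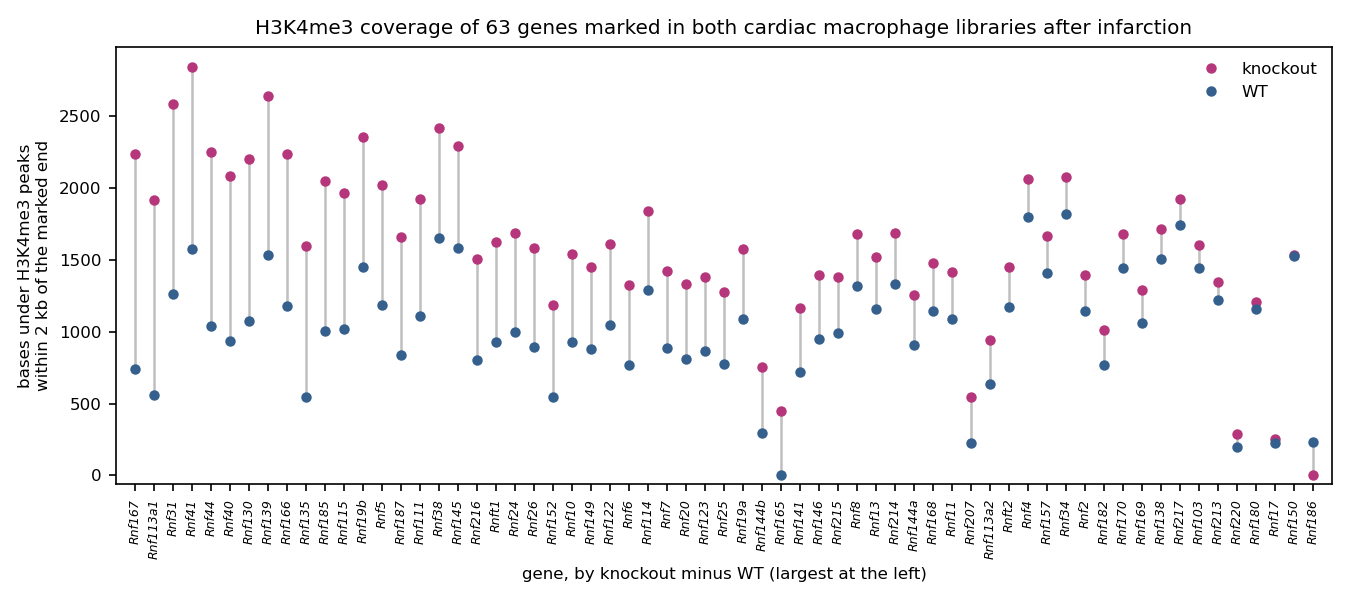
Bases under H3K4me3 peaks within 2 kb of the marked end of 63 members, in knockout (magenta) and WT (blue) cardiac macrophages after infarction, 1 library each, in order of knockout minus WT. Knockout lay above WT at 62 genes, from Rnf167 with 2234 bases in knockout and 741 in WT at the left to Rnf186 with 0 in knockout and 232 in WT at the right.

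The plot of covered bases shows a spread of differences with no separate set of genes. The largest were at Rnf167, a lysosomal relative of Rnf149, with 2234 bases in knockout and 741 in WT, and at Rnf113a1, of the spliceosome, with 1914 in knockout and 559 in WT. Rnf31 had 2585 bases in knockout and 1263 in WT, at the end away from its start site and within 1 kb of an end of Irf9. Rnf41 had 2837 in knockout and 1571 in WT, Rnf44 2246 in knockout and 1040 in WT, and Rnf40 2081 in knockout and 938 in WT. Of these 6, Rnf44 had no other protein-coding gene end within 1 kb of its marked end.

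The smallest differences, apart from Rnf186, were at Rnf150 (1532 bases in knockout and 1525 in WT), Rnf17 (252 in knockout and 224 in WT), Rnf180 (1208 in knockout and 1157 in WT), Rnf220 (291 in knockout and 200 in WT) and Rnf213 (1342 in knockout and 1223 in WT). Of the 5 leaders of the NPM1 lists Rnf44 was among the largest differences, and the other 4 lay between the extremes, as did Rnft2. Rnf149 had 1452 bases in knockout and 882 in WT, Rnft1 1626 in knockout and 927 in WT, Rnft2 1447 in knockout and 1168 in WT, Rnf5 2021 in knockout and 1184 in WT, and Rnf13 1518 in knockout and 1160 in WT. At the 46 members whose marked end is the upstream end by strand the medians were 1588 bases in knockout and 1012 in WT, with more in knockout at 45.

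The difference was set beside NPM1 of infarct WT macrophages at the same end. The 38 members with an NPM1 −log10 q of 5 or more had medians of 1678 bases in knockout and 1096 in WT, with a median difference of 559. The 17 with a weaker NPM1 peak had 1474 in knockout and 1044 in WT, with a difference of 334. The 8 without an NPM1 peak had 882.5 in knockout and 420.5 in WT, with a difference of 455. Over all genes the 3 median differences were 566, 559 and 606, and among the members they followed no order by NPM1.

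Members with H3K4me3 and no NPM1 gene-end peak in any list were Rnf6, Rnf17, Rnf43, Rnf113a1, Rnf138rt1, Rnf144b, Rnf165 and Rnf182. Rnf6, a ligase close to Rlim, stood out by strength, and was singled out after its values were seen: its H3K4me3 peak had fold 10.6 (−log10 q 123) in knockout and fold 8.19 (−log10 q 21.4) in WT, where it ranked 1614 among genes. No infarct or IL-4 NPM1 peak lay in the gene or within 5 kb, and its sham peaks, 2 in all, had a −log10 q no higher than 1.41. Rnf113a1 likewise had no NPM1 peak within 5 kb of the gene in any list, with H3K4me3 folds of 8.42 in knockout and 6.38 in WT.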

How the data were processed

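Per the labels' protocols, CUT&Tag libraries were made with antibodies against NPM1 or H3K4me3 and a commercial kit. Peaks are on genome build mm10; the tools named, per the submitters' processing notes, are MACS2 2.2.7.1, Bowtie2, bcl2fastq 2.17 and deepTools. The sources used here give no settings, duplicate handling or control library. Each of the 6 files is a narrowPeak list of 1 library. The authors deposited for each peak a score, a fold enrichment (a ratio of pileup to local background, each with 1 added), a −log10 p and a −log10 q. The deposited score was 10 times the −log10 p, to within 1. The smallest deposited −log10 p was 2.01, and 5.01% to 27.8% of a list's peaks had a deposited q above 0.05.

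From fold and −log10 p the pileup (a whole number) and the background of each summit were solved, within 0.001 for 99.97% to 99.98% of summits, and the most frequent background stands for depth. Genes came from the GRCm38.p6 gene table, which names the assembly of mm10 and gives outermost ends without strand; start sites of 67 of 85 members came from the RefSeq promoter table. A gene's best peak in a list is that of highest −log10 q within 1 kb of an end. Named genes are Rnf149, Rnft1 and Rnft2, for each pair of lists the 12 members of highest −log10 q with no peak within 5 kb in the other list, members marked in the second list alone, the 6 largest and 6 smallest covered-base differences, those at a threshold, and examples and peakless members of role lists; other names were chosen after their values were seen. The members and all lists were chosen with earlier results of these data known. Rnf227, in a role list, was not analysed here. No test was possible with 1 library per group. Python 3.11.15, numpy 2.4.6, pandas 2.3.3, scipy 1.17.1 and matplotlib 3.10.9 were used. Tested on simulated lists, the code recovered 400 of 400 genes given a peak in just the first list, 200 of 200 in just the second and 300 of 300 in both. The genes given a peak were long and far from other protein-coding genes, with peaks centred inside the window, so crowded gene ends were not tried. Alternatives were stricter q, other windows, summits, equal list lengths, thinning of the deeper library and, added after the data were seen, start-site windows.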

Additional observations from a re-analysis of the deposited data

How the results depend on the processing

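Counts of members marked in the infarct list alone ran from 39 to 55 (52 as reported), in the IL-4 list alone from 35 to 58 (50) and in the knockout list alone from 4 to 9 (6), all within 1.5 times the reported count. These alternative counts were made for members alone, with no share over all genes. The median of knockout minus WT covered bases ran from 419 to 587 (500 as reported). Small counts moved more. Members marked in sham alone, 0 as reported, were 1 with a deposited q of 0.05 or less, 1 with a window of 500 bp, 3 with 2500 bp, 1 with equal list lengths and 1 after thinning. Members marked in untreated alone, 1 as reported, were 0 with a −log10 q of 5 or more, 0 with 500 bp, 0 with 2500 bp, 0 with the summit inside the window, 2 with equal list lengths and 2 after thinning. Members marked in WT H3K4me3 alone, 1 as reported, were 0 with q of 0.05 or less, 0 with −log10 q of 5 or more, 0 with equal list lengths, 2 with 500 bp, 2 at start sites and 3 with the summit inside the window. With −log10 q of 5 or more for both antibodies, members with NPM1 and WT H3K4me3 at the same end were 37 in infarct (56 as reported) and 33 with IL-4 (50). The cause was not tested. Among the other values recomputed 45 moved and 1236 did not, where a member's fold counted as moved at any change, a motif share outside its interval, and other values past 1.5 times. No paired analysis was possible because each group had 1 library. Depth limits absence: the background was 3.03 reads per position in infarct and 1.29 in sham, and 4.18 with IL-4 and 1.31 untreated. The search of member proteins for the RING pattern was not run.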
